A study of Caenorhabditis elegans with 2 samples.

Results

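A list of 6 worm genes for proteins that bind or act on RNA was examined in ChIP-seq (chromatin immunoprecipitation followed by sequencing) data for the tagged protein ZK546.5. The genes were sqd-1, hrp-1, hrp-2, vig-1, tsn-1 and mex-1, 6 of 19973 nuclear protein-coding genes. They were named as a list, drawn up with the peak calls of these data known, and each was followed at the start of its annotated gene. For each gene the highest region with a summit within 1 kb of the start was taken from every list of regions. The signal value, rank and distance of that region are therefore a description and carry no test.

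The chromatin came from whole Caenorhabditis elegans of strain OP231 at the L4 stage, the last larval stage, in a population of mixed sex. The strain is an unc-119(ed3) mutant on chromosome III and carries the transgene wgIs231, from which ZK546.5 is made with a C-terminal GFP-FLAG tag. Both samples carry the mutation and the transgene, and no untagged or wild-type sample was analysed here. There was 1 group of 2 samples, biological replicates 1 and 2. Whole animals were used, so a region bound in few cells and one bound weakly in many cannot be told apart.

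Every value below comes from 4 lists of regions on the ce11 assembly. Replicates 1 and 2 have a list each, and a pooled list was derived from the alignments of both replicates. Each of these lists held 30000 regions, peaks and background together. The fourth list, the set that passed IDR (the irreproducible discovery rate, which scores whether a region keeps a high rank in both replicates), held 92 regions, 73 of them nuclear. The signal value is the authors' score of each region, whose scale the sources used here do not give. Signals were therefore read against their own list, whose median was 12.7 in the pooled list, 8.98 in replicate 1 and 6.39 in replicate 2. The IDR set was exactly the top 92 regions of the pooled list, with a signal of 36.14 at rank 92, while the first region outside it had 36.07 at rank 93. The lists hold no read counts, so the depth of the libraries is unknown.

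The genes cover 3 kinds of RNA-binding protein. The hnRNPs (heterogeneous nuclear ribonucleoproteins) coat new transcripts and act in splicing, export and localization of mRNA. RISC, the RNA-induced silencing complex, carries a small RNA on an Argonaute protein to matching messages. CCCH zinc finger proteins such as MEX-1 bind maternal messages in the oocyte and early embryo, where they control which cells make which proteins.

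Regions at sqd-1 and vig-1 were among the highest of all lists, mex-1 lay near the lower edge of the IDR set, and tsn-1, hrp-1 and hrp-2 had no IDR region. An IDR summit was within 1 kb of the start of 3 of the 6 genes, against 0.466% of all nuclear protein-coding genes, a contrast fixed by the choice of the genes. Any pooled-list summit was there for 5 of 6, against 49.1% of all nuclear protein-coding genes, so being listed at all is common. The same 5 genes had a summit there in replicate 1, against 49.0%, and in replicate 2, against 49.9%, and so in the pooled and both replicate lists, against 22.8%. A summit of the top 1000 of the pooled list was there for 3 of 6 genes, against 2.54%. These were the same 3 genes as for the IDR set, so this contrast too was fixed by the choice of the genes.

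The sequences around the 3 IDR summits beside these genes, and around a further IDR summit upstream of sqd-1 at the gene Y73B6BL.29, are shown because the strong signal and the words described below lie in them. Each runs 201 bases on the plus strand of ce11, centred on the pooled summit, and was read from the RefSeq sequence of the same assembly. The genes named are all on the plus strand. The capitals mark matches to ACCGTA at sqd-1, TACGCAG or its reverse complement at Y73B6BL.29 and vig-1, and CACGTG at mex-1.
sqd-1, chrIV:6323761-6323961: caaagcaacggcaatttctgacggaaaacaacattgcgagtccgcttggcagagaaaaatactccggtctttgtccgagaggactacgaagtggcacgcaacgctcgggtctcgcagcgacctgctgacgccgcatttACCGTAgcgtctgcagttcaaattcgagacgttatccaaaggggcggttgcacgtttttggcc
Y73B6BL.29, chrIV:6321816-6322016: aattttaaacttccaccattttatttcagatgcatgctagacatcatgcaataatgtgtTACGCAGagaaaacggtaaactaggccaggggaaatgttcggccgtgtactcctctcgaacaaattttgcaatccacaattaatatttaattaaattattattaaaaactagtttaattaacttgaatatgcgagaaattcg
vig-1, chrII:1320519-1320719: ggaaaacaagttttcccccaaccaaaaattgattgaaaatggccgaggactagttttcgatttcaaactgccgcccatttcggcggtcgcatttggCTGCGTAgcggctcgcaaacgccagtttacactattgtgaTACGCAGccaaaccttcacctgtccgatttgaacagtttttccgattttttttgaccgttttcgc
mex-1, chrII:11967638-11967838: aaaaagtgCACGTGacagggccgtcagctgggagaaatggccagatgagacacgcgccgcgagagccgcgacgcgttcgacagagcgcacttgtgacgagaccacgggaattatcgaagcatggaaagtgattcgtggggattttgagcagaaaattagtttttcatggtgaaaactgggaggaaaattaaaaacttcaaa

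The highest region of the 6 genes lay before sqd-1. The gene is named after Drosophila squid, which encodes an hnRNP that acts in mRNA localization. It lies on chromosome IV from 6324174 to 6326422 on the plus strand, with the identifier WBGene00022235. Its region spanned 6323711 to 6324022 and had a signal of 564 in the pooled list at rank 3. The signal was 333 at rank 5 in replicate 1 and 239 at rank 3 in replicate 2, so the region stood in the top 5 of each list. These signals were 44.2, 37.1 and 37.4 times the median of the pooled, replicate 1 and replicate 2 lists. Only 2 nuclear protein-coding genes had a higher pooled region within 1 kb.

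The sqd-1 summit lay 313 bp upstream of the gene start, between protein-coding genes. The summit was at the same base in the pooled list and in replicate 2, and 16 bp away in replicate 1. sqd-1 was the only annotated start within 1 kb, leaving aside piRNA genes and pseudogenes. The gap to the preceding gene, Y73B6BL.29, is 606 bp, and both genes run the same way. lsm-8, which encodes a subunit of the nuclear LSM complex on U6 RNA, begins 103 bp after the end of sqd-1 on the same strand. Around lsm-8 the pooled list had regions with signals of 14.6 and 20.3, at ranks 9061 and 1542.

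A further IDR region lay 2258 bp upstream of sqd-1, outside the 1 kb window. It spanned 6321766 to 6322065 with a pooled signal of 60.3 at rank 52. In the replicates it had a signal of 33.9 at rank 61 and of 22.3 at rank 67. Its summit was 13 bp upstream of the start of Y73B6BL.29, the only gene start within 1 kb of it. Both starts of this same-strand pair of neighbours thus carried an IDR region of their own, the sqd-1 one being the higher in the pooled and both replicate lists.

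The other genes for hnRNP-like proteins stood apart from sqd-1 in every list. hrp-1, annotated as hrpa-1 and encoding a relative of hnRNP A1, lies on chromosome IV from 3336920 to 3338867 on the minus strand. Its pooled region had a signal of 12 at rank 18198, below the list median. In replicate 1 the signal was 7.04 at rank 27464, and in replicate 2 it was 9.91 at rank 2928. The regions of both replicates overlapped, but their places in the lists were far apart, near the bottom of one and in the upper part of the other. The summits lay near the gene start, 33 bp downstream in the pooled list, 38 bp downstream in replicate 1 and 42 bp upstream in replicate 2. In replicate 2 a region 3418 bp upstream of the start had a higher signal than the one at the start, 13.1 at rank 582. In the pooled list the region there, 3398 bp upstream, was the lower of the pair, with a signal of 11.3 at rank 21571. On the upstream side the gap to F42A6.2, which runs the other way, is 2602 bp, so that gene begins between hrp-1 and these upstream summits. F42A6.6 follows 46 bp after the end of hrp-1 on the same strand.

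hrp-2 had no summit within 1 kb of the gene start in the pooled list or in either replicate, as did 25.3% of all nuclear protein-coding genes. It is annotated as hrpr-1, encodes a relative of hnRNP R and lies on chromosome I from 12060271 to 12064897 on the minus strand. The nearest pooled summit was just outside the window, 1066 bp upstream of the start, with a signal of 10 at rank 28735. It lay in an exon of the neighbouring gene F58D5.2. The highest pooled region within 5 kb had a signal of 18.1 at rank 3103 and lay at the far end of hrp-2, 4622 bp downstream of the start. The replicates had regions there at ranks 6245 and 24368. Another annotated transcript of hrp-2 starts 3187 bp from the gene start. Near it, replicate 1 listed a region 3435 bp downstream of the gene start, with a signal of 7.54 at rank 23655.

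Of the genes for RISC proteins, vig-1 had a strong region and tsn-1 a weak one. VIG-1 is the worm relative of Drosophila VIG, a RISC subunit, and TSN-1 is the Tudor staphylococcal nuclease, also found in RISC. vig-1 lies on chromosome II from 1321037 to 1323073 on the plus strand, with the identifier WBGene00006924. Its IDR region spanned 1320520 to 1320717 and had a pooled signal of 267 at rank 14, or rank 12 among nuclear regions. The signal was 171 at rank 14 in replicate 1 and 106 at rank 16 in replicate 2. Both replicates therefore placed vig-1 at nearly the same rank. The signals were 20.9, 19.0 and 16.6 times the median of the pooled, replicate 1 and replicate 2 lists.

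The vig-1 summit was 418 bp upstream of the start in the pooled list and in replicate 1, and 432 bp upstream in replicate 2. It lay in the 597 bp between fcho-1, which encodes a protein of clathrin-mediated endocytosis, and vig-1. fcho-1 runs the same way and begins 10104 bp from the summit, so vig-1 was the only start within 1 kb. The region was narrow, at 198 bp in the pooled list, 167 bp in replicate 1 and 94 bp in replicate 2. Most regions have a fixed width of 300, 296 or 320 bp in these lists, and a width other than 300 bp was found for 22 of the 30000 pooled regions and for 21 of the 92 IDR regions. The sqd-1 region was also of its own width, 312, 280 and 237 bp in the pooled, replicate 1 and replicate 2 lists, while that of mex-1 had the fixed width in each.

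Further regions lay within vig-1 at lower signals. Replicate 2 listed regions 165 bp and 791 bp downstream of the start, with signals of 12.9 at rank 630 and 6.17 at rank 16387, which neither the pooled nor the replicate 1 list had within 1 kb. A pooled region with a signal of 25.4 at rank 341 had its summit 1691 bp downstream of the start, in F56D12.10, an ncRNA gene on the opposite strand inside vig-1. In the replicates it ranked 2753 and 18442.

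tsn-1 lies on chromosome II from 4706821 to 4710168 on the plus strand. Its highest pooled region had a signal of 19.1 at rank 2206, or 1.5 times the list median. The signal was 10.1 at rank 10027 in replicate 1 and 10.4 at rank 2257 in replicate 2. These regions overlapped and lay within the gene, with the summit at 4707367 in the pooled list, 503 bp downstream of the start in replicate 1 and 420 bp in replicate 2. A pooled region before the gene had a signal of 13.9 at rank 11172, with its summit 468 bp upstream in an exon of F10G7.9, a gene that runs the other way. Of the 9798 nuclear protein-coding genes with a pooled summit within 1 kb, 991 had a higher one than tsn-1, while 19 had a higher one than vig-1.

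mex-1 had an IDR region that lay nearer to another gene. MEX-1 is a CCCH zinc finger protein of the early embryo, where it is needed for the correct fates of blastomeres and for the segregation of P granules. The gene lies on chromosome II from 11968637 to 11972330 on the plus strand. The region spanned 11967588 to 11967887 and had a pooled signal of 38.1 at rank 86, within 6 ranks of the end of the IDR set. The signal was 22.1 at rank 138 in replicate 1 and 14.6 at rank 289 in replicate 2. In neither replicate was it among the top 92.

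The mex-1 summit was 899 bp upstream of the gene start in the pooled list, 968 bp in replicate 1 and 918 bp in replicate 2. All were close to the limit of 1 kb. W03C9.5, on the minus strand, starts 194 bp from the pooled summit, and rab-7, which encodes a GTPase of late endosomes, starts 807 bp from it, also on the minus strand. The summit was upstream of all 3 starts, in the 1092 bp between the divergent genes W03C9.5 and mex-1. The region cannot be given to 1 of these genes from position alone.

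**Figure D1:**
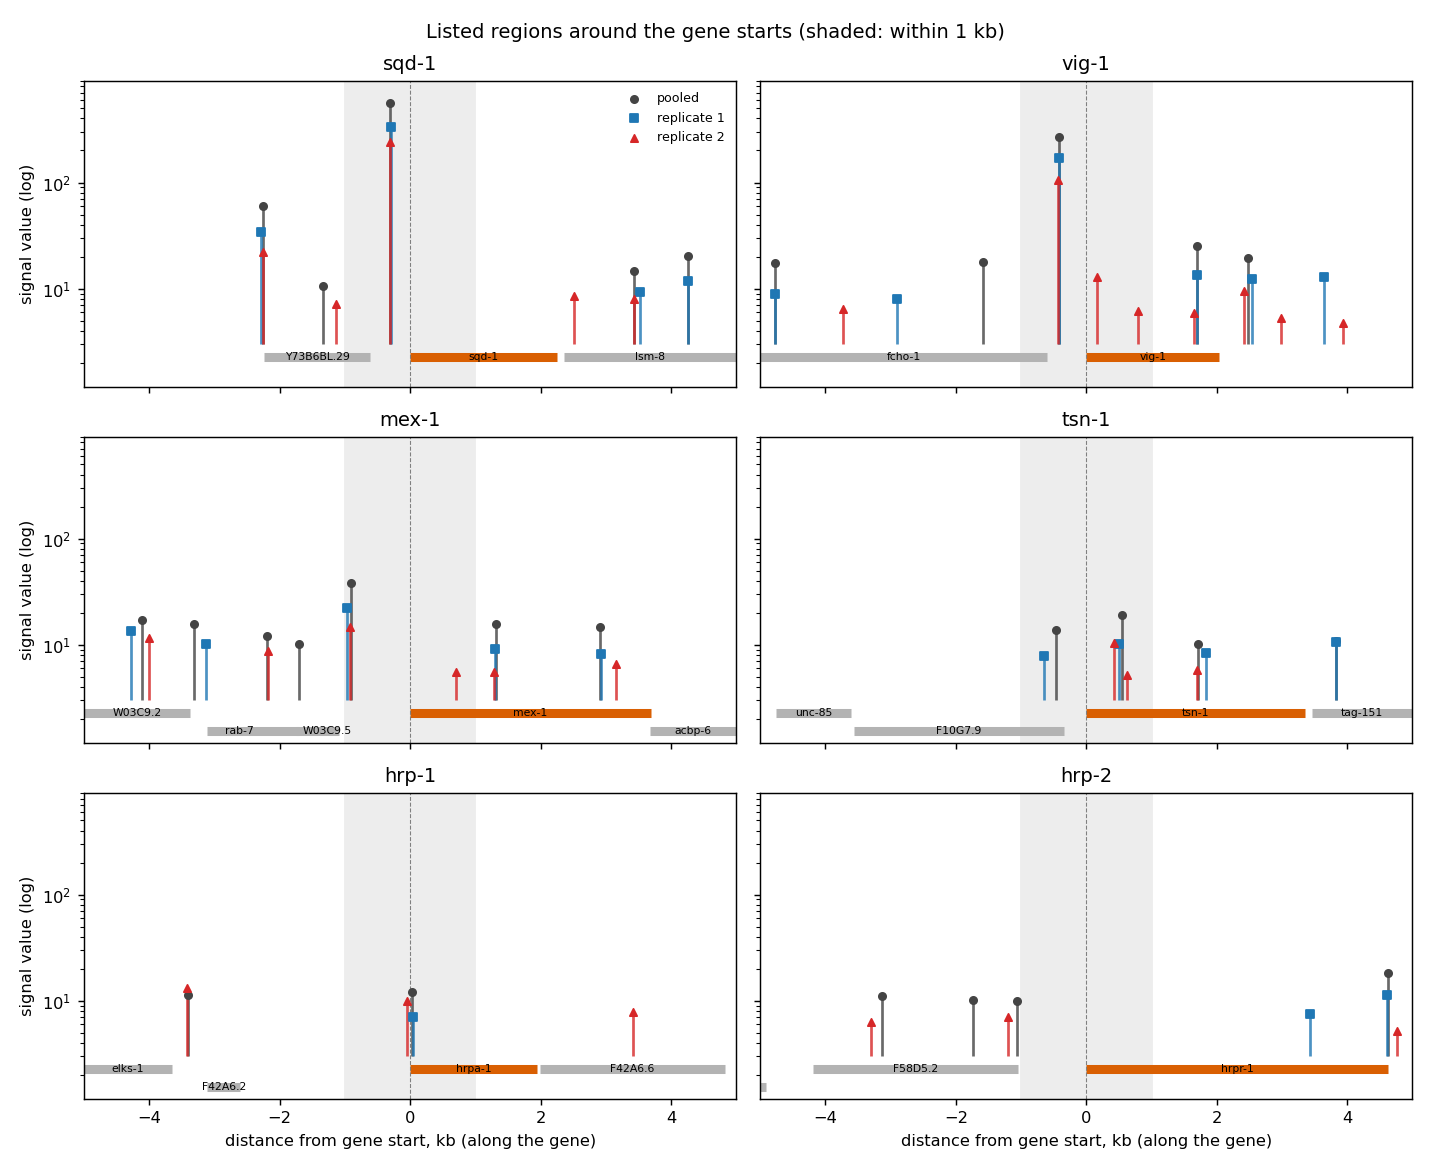
Listed regions within 5 kb of the 6 gene starts. The x axis is the distance from the gene start in kb along the gene, the y axis the authors' signal value on a log scale, and stems stand at the summits of the pooled, replicate 1 and replicate 2 lists; bars below are protein-coding genes, in orange the named one and on the lower row those on the opposite strand. The regions before sqd-1 and vig-1 rise to 564 and 267 in the pooled list, the one before mex-1 to 38.1, and the shaded 1 kb around hrp-2 is empty.

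The order sqd-1, vig-1, mex-1 held in the pooled and both replicate lists, with ranks that did not overlap between these genes. The ratio of the signal in replicate 1 to that in replicate 2, lists with medians of 8.98 and 6.39, was 1.39 at sqd-1, 1.61 at vig-1 and 1.51 at mex-1. For tsn-1 and hrp-1 the ratios were 0.971 and 0.710. tsn-1 ranked above hrp-1 in the pooled and both replicate lists, but the replicate ranks overlapped between these genes, from 2257 to 10027 at tsn-1 and from 2928 to 27464 at hrp-1. The summits of the replicates were 16, 14 and 50 bp apart at sqd-1, vig-1 and mex-1, and 83 and 80 bp apart at tsn-1 and hrp-1.

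**Figure D2:**
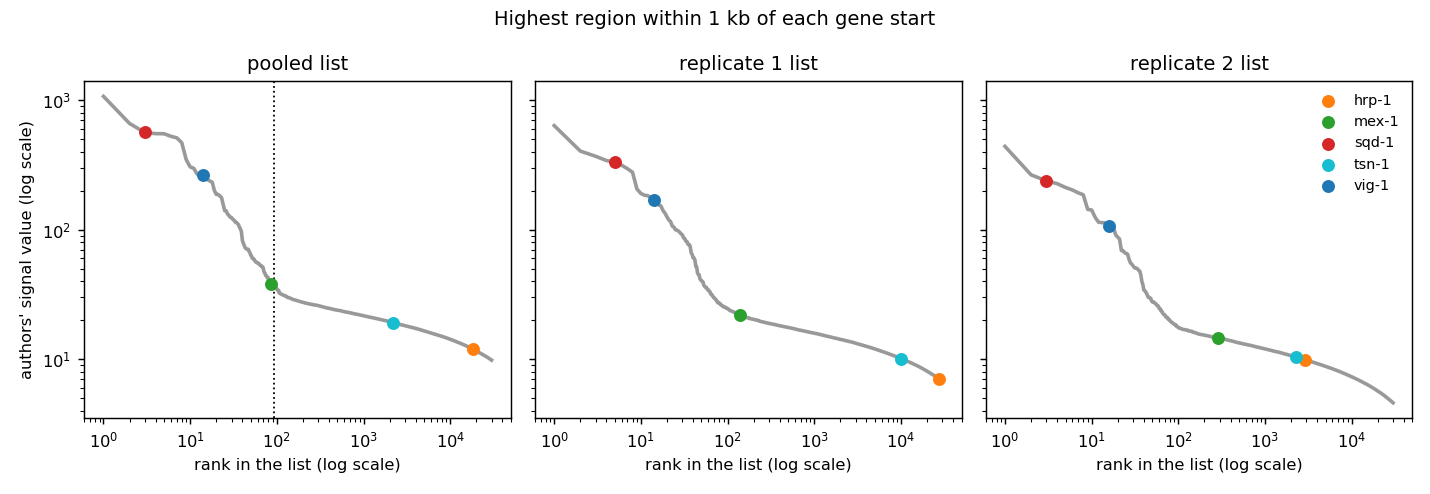
Signal value against rank in the pooled, replicate 1 and replicate 2 lists, both axes on a log scale. Points are the highest regions within 1 kb of each gene start and the dotted line is the end of the IDR set at rank 92; sqd-1 and vig-1 stand on the steep part of each curve, mex-1 at its foot, and tsn-1 and hrp-1 on the long flat part.

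**Figure D3:**
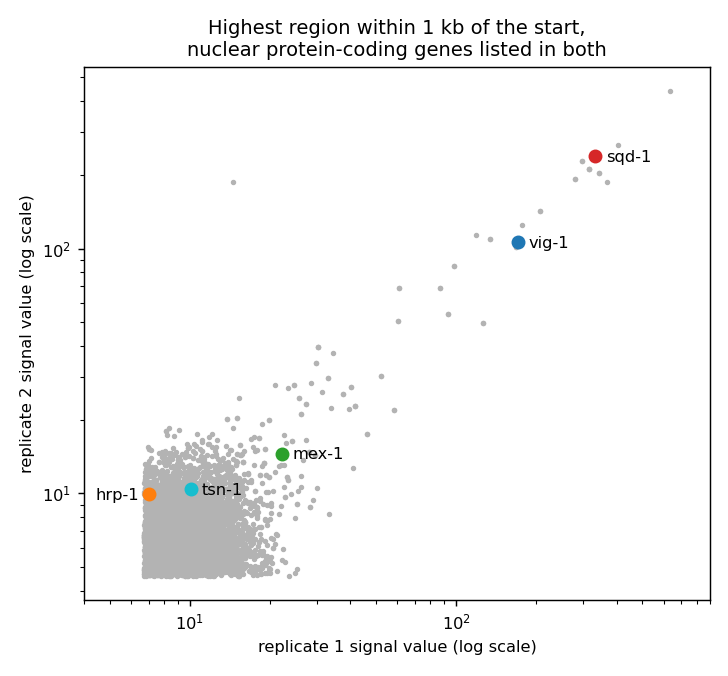
Highest signal value within 1 kb of the start in replicate 1 (x axis) and replicate 2 (y axis), log scales, for the 5429 nuclear protein-coding genes with a summit in both lists. Each grey point is a gene; sqd-1 at 333 and 239 and vig-1 at 171 and 106 lie far above the main cloud, mex-1 at its edge, and tsn-1 and hrp-1 inside it.

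The genes with the nearest ranks over the pooled and both replicate lists were found by the distance of their log10 ranks. The search covered 4552 nuclear protein-coding genes and 3 lists. For sqd-1 the nearest were egl-30, rpl-27 and C53H9.4 on chromosome I, which share 1 region at ranks 6, 6 and 5 in the pooled, replicate 1 and replicate 2 lists, with a pooled signal of 527. For vig-1 they were dpm-3 and rps-23, which share 1 region at ranks 12, 15 and 18 with a pooled signal of 269, and ekl-4 at ranks 16, 19 and 15. W03C9.5 and rab-7, whose starts lie within 1 kb of the mex-1 region itself, share its ranks and are left aside. The nearest others for mex-1 were rheb-1 and spk-1, with 1 shared region at ranks 74, 76 and 249. The proton pump gene vha-15 followed at ranks 90, 122 and 153. The distances were 0.382 for the sqd-1 matches, 0.0894 and 0.147 for those of vig-1, and 0.275 and 0.282 for those of mex-1.

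The words in the sequences above differed from gene to gene. ACCGTA was chosen from earlier results of these data, and on either strand it was in the 201 bases around 30 of the 73 nuclear IDR summits (41.1%), around 5.24% of the nuclear pooled summits and in 5.68% of equally long stretches before protein-coding gene starts. Of the sequences shown, only that of sqd-1 held it, with its centre 40 bp from the summit. CCTGCACA, also from earlier results, was around 15 of the 73 (20.5%) and 0.274% of the pooled summits, and none of the sequences shown held it or its reverse complement. CACGTG, the palindromic E-box, was at mex-1 at 90 bp from the summit. It was around 3 of the 73 nuclear IDR summits (4.11%), 2.7% of the nuclear pooled summits and in 4.23% of the stretches before gene starts.

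At vig-1 the pooled summit lay in an inverted repeat. Its left arm, tttggctgcgta from 1320610 to 1320621, contains the summit of the pooled list and of replicate 1 at 1320619, while that of replicate 2, at 1320605, lies outside the arms. The right arm, tacgcagccaaa from 1320655 to 1320666, is its exact reverse complement, with 33 bases between the arms. An inverted repeat with arms of 12 bases or more was in 4.38% of the windows around nuclear pooled summits. It was in 2 of the 73 around IDR summits (2.74%), the vig-1 window included. The shared core TACGCAG, picked after the vig-1 sequence was seen, was found on either strand around 7 of 73 nuclear IDR summits (9.59%). The vig-1 sequence is itself among the 7, so that count is in part fixed by the choice of the word. TACGCAG was around 0.7% of nuclear pooled summits and in 0.921% of equally long stretches before protein-coding gene starts. Beside both copies at vig-1 it occurred once at Y73B6BL.29, with its centre 38 bp from that summit. The sqd-1 and mex-1 sequences held no TACGCAG. A relation of the word to the signal was not tested.

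The sequences also differed in base composition. GC content was 53.7% at sqd-1, 46.3% at vig-1, 49.3% at mex-1 and 32.3% at Y73B6BL.29. The median was 42.8% around nuclear IDR summits and 31.8% around nuclear pooled summits, so 3 of the sequences were richer in GC than both medians and the Y73B6BL.29 sequence was close to the pooled one. The part of base composition in the signal was not tested.

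Related genes without an IDR region were often listed, at low signals. A set of 143 genes for other RNA-binding and small-RNA proteins was taken by symbol, in 4 groups by role, and 142 were in the annotation; tiar-3 was not. Of the 142, 1 had an IDR summit within 1 kb of its start, against 0.466% of nuclear protein-coding genes. A pooled summit was there for 61 of 142 (43.0%), against 49.1%. A summit of the top 1000 was there for 3 (2.11%), against 2.54%. A summit in the pooled and both replicate lists was there for 30 (21.1%), against 22.8%, and 37 (26.1%) had none in any of the 3 lists, against 25.3%. These shares were near those of all genes. Replicate ranks given below are those of the highest region within 1 kb in each replicate, which need not be the region of the pooled list. The median pooled signal of the 61 was 13.6, and that of all 9798 genes with a pooled summit 13.4.

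The only related gene with an IDR region was ifet-1, which encodes a relative of the eIF4E transporter, a repressor of translation. Its region on chromosome III, from 4475534 to 4475833, had a pooled signal of 39.0 at rank 81 and stood at ranks 228 and 80 in replicates 1 and 2. The summit was 534 bp upstream of ifet-1 and nearer to 3 other starts. These were the ncRNA genes F56F3.11 and F56F3.10, at 27 bp and 108 bp, and the ribosomal protein gene rps-1, at 234 bp. As at mex-1, the gene on the list was not the nearest one.

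Among genes of RISC and the small-RNA pathway 0 of 46 had an IDR summit, against 0.466% of all nuclear protein-coding genes. A pooled summit was there for 22 (47.8%), against 49.1%, so both counts were near the shares of all genes. The highest was rde-4, which encodes the double-stranded RNA-binding partner of Dicer, with a pooled signal of 30.5 at rank 129 and ranks 1423 and 307 in the replicates; its summit was 121 bp upstream. xrn-2, an exonuclease gene, had a signal of 20.7 at rank 1362, and mut-7, which encodes an exonuclease of the RNAi pathway, 19.7 at rank 1898. dcr-1, the Dicer gene, had a signal of 18.2 at rank 2981, but apc-2 started nearer to that summit and replicate 2 listed no region there. The Argonaute genes of the microRNA pathway, named after their values were seen, differed among themselves. alg-5 had a pooled signal of 17.5 at rank 3779, with ranks of 1348 and 9293 in the replicates. alg-1 had a pooled signal of 14 at rank 10779 and no region in replicate 2, and alg-2 had no region within 1 kb in any list.

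Genes for hnRNP-like proteins and splicing regulators had a pooled summit in 21 of 42 (50.0%), against 49.1% of all nuclear protein-coding genes. An IDR summit was there for 0 of 42, against 0.466%, so both counts were near the shares of all genes. hrpu-1, a relative of the hnRNP U gene, had a signal of 26.8 at rank 231, with a summit 1 bp from its start. It ranked 621 in replicate 1, with the summit 27 bp upstream. In replicate 2 the rank of 1571 was that of another region, 673 bp downstream. msi-1, the Musashi gene, had 20.9 at rank 1276, with ranks of 895 and 25749 in the replicates. The replicate 1 summit was 397 bp downstream of its start and that of replicate 2 346 bp upstream, so these are different regions. rnp-8 had 18.2 at rank 2962. Germline and cytoplasmic mRNA regulators had a pooled summit in 15 of 43 (34.9%), below the 49.1% of all genes, with ifet-1 and larp-1 among them. larp-1 had a signal of 18.3 at rank 2905 and no region in replicate 2. CCCH zinc finger genes, the relatives of mex-1, had a pooled summit in 3 of 11 (27.3%), against the same 49.1%, with signals from 10.7 to 12.7. With so few genes a share of this kind is imprecise.

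**Figure D4:**
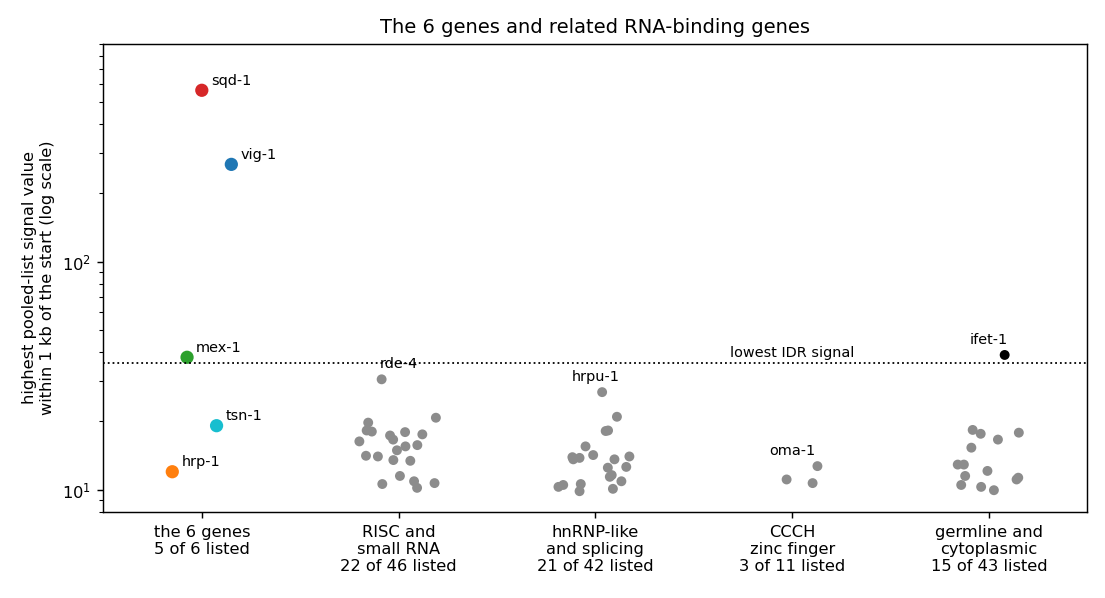
Highest pooled-list signal value within 1 kb of the gene start, on a log scale, for the 6 genes (left) and the 4 groups of related genes, each point a gene, with the number listed under each group. The dotted line is the lowest signal of the IDR set; of the related genes only ifet-1 (black, 39.0) is above it, with rde-4 at 30.5 and hrpu-1 at 26.8 next.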

How the data were processed

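ZK546.5 binding was measured by ChIP-seq in 2 biological replicates. Per the deposited README text, the authors made each list of peaks and background from the ChIP alignment or alignments and a control alignment, and derived the optimal IDR set from the pooled and both replicate lists. The deposited signal value (column 7) was used as given and ranked within each list. An aligner, a peak caller, their versions or a threshold for IDR were not given in the sources used here. Deposited ce10 lists were not used, since no ce10 annotation was at hand and coordinates were not converted.

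Genes and biotypes came from Ensembl release 115 of WBcel235, the ce11 assembly; no listed region ran past a chromosome end of that assembly. The gene start was the 5 prime end of the gene, and a region counted for a gene when its summit was within 1 kb of it. Ranks run from the highest signal. The 6 genes and the words ACCGTA and CCTGCACA were chosen with earlier results of these data known. The related genes, and the rule for those named (any with an IDR summit and the 8 highest others), were set by symbol with those results known as well. No test was made, because the genes were chosen for these values; 2 replicates also give no useful test of 1 region. The window rule was tested on simulated data. Python 3.11.15 with pandas 2.3.3 and numpy 2.4.6 was used. The alternatives were windows of 500 bp and 2 kb, transcript starts, overlap of at least 1 bp, each replicate alone and the stronger 46 regions of the IDR set. Library depth is unknown, so no interval was computed.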

Additional observations from a re-analysis of the deposited data

How the results depend on the processing

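The numbers of the 6 genes with an IDR summit, a pooled summit or a top 1000 summit stayed within 1.5 times of the values above under the alternatives run. Overlap was not run for the top 1000, nor the stronger IDR regions for pooled or top 1000 summits. IDR summits were at 3 genes as reported, and at 2 with the 500 bp window, the stronger 46 regions of the IDR set, or the top 92 regions of a single replicate, each of which leaves out mex-1. Pooled summits were at 5, or 4 to 6. hrp-2 was counted when overlap replaced the summit and in the 2 kb window, with a signal of 10.2 at rank 27672. In the 500 bp window the tsn-1 rank was 11172, from another region. For related genes the IDR count of 1 became 0 in the 500 bp window and in the stronger 46 regions, and ran from 0 to 1 with each replicate alone. It became 0 without replicate 2, as ifet-1 ranked 228 in replicate 1. Their pooled count of 61 was 38 in the 500 bp window and 94 in the 2 kb window, as follows from the width. With each replicate alone the hrp-1 rank of 18198 was 2928 or 27464, and that of mex-1, 86, was 289 or 138. hrp-2 has no rank to recompute. Unknown depth limits every low rank: a gene without a listed region is not shown to be unbound.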

Other observations

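Some related genes stood differently in the replicates; these were named after their values were seen. pab-1, a poly(A)-binding protein gene, ranked 500 in replicate 1 with a signal of 17.6, and had no summit within 1 kb in replicate 2. pash-1, which encodes the partner of the microRNA-processing enzyme Drosha, ranked 755 in replicate 1, 926 in replicate 2 and 4932 in the pooled list. The replicate 1 summit was 509 bp downstream of its start and that of replicate 2 596 bp upstream, so these are different regions. The microRNA-pathway gene ain-1 was listed in replicate 2 alone, at rank 10351. fust-1, of the hnRNP-like and splicing group, was also listed in replicate 2 alone, at rank 166 with a signal of 15.8. Of the 11 CCCH zinc finger genes related to mex-1, 3 had a pooled summit within 1 kb (oma-1, oma-2 and pie-1). In replicate 1 there were 4 with a summit and in replicate 2 there were 8, while 2 (pos-1 and ccch-5) had none in any list. The shares of all nuclear protein-coding genes were 49.1% pooled, 49.0% in replicate 1, 49.9% in replicate 2 and 25.3% in no list. Counts out of 11 genes are imprecise. pie-1 alone was in the pooled and both replicate lists, at ranks 24596, 15345 and 29943, against 22.8% of all nuclear protein-coding genes. Its summit was 258 bp upstream in the pooled list and 246 bp upstream in replicate 2. That of replicate 1 was 264 bp downstream and is a different region.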
